A study of Drosophila melanogaster with 9 samples.

Results

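The 9 genes described here make, coat and break down the triacylglycerides that a fly stores in lipid droplets. They were taken by symbol from the authors' annotation sheet, were all present among the 14865 genes of the count table, and all passed the low-count filter that left 13274 genes for testing. The libraries were poly(A) RNA of whole adult Drosophila melanogaster 8 days after eclosion, kept on food of 8% yeast and 9% sugar. The mutant group, E78A mutant in the titles and E7818.37 in the authors' sample sheet, had 4 libraries, and the control group, w1118 in that sheet, had 5. The labels do not say what the mutation alters, how many flies went into a library, whether libraries came from separate crosses, or the sex of the flies, and the p-values given here therefore reflect only how much these libraries vary, which may be technical.

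Triacylglycerides are built by adding fatty acids to a glycerol backbone. A phosphatidate phosphatase makes diacylglycerol, and a diacylglycerol acyltransferase adds the last fatty acid. The product is packed into droplets whose surface proteins, the perilipins, govern the access of lipases, which release the fat again when the animal fasts. In flies most of this store lies in the fat body, an organ with the roles of liver and adipose tissue, and fat from food is handled in enterocytes of the midgut. E78A, a nuclear receptor encoded by Eip78C, is placed by the series title in the uptake of dietary fat and in the lipid levels of the whole body, and the comparison asks whether transcripts of the storage machinery differ when it is mutated.

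Library totals ran from 16556267 to 19093675 counts. Eip78C itself was at 10.7 ± 1.45 CPM (counts in each 1000000 counts of the library) in E78A mutants (SD, n = 4) and 10.6 ± 2.86 CPM in controls (SD, n = 5), so its level does not check the genotype labels. For 4 libraries, mutant replicates 3 and 4 and control replicates 4 and 5, the genotype tag contradicts the title, and the authors' sample sheet sided with the title for all 9. Markers of the expected tissues were present: 6 of 6 fat body markers and 6 of 6 midgut markers had counts in every library. Of 35 markers over 7 tissue lists, 0 were called by edgeR or by DESeq2, where these called 1.63% and 3.44% of all tested genes. At an unadjusted p under 0.05 in edgeR it was 4 of the 35, against 15.1% of all tested genes. These marker counts are near those shares and do not show that tissue content was equal. The summed fat body markers ran from 5845 to 8606 CPM in mutants and from 6597 to 9532 CPM in controls, and the midgut markers from 3261 to 4801 CPM in mutants and from 3660 to 5228 CPM in controls. Single markers went both ways by log2 fold change, mutant over control. In fat body they ran from -0.29 (AkhR) to 0.35 (Lsp2). In midgut they ran from -0.61 (Jon25Bi) to 0.72 (betaTry, at 0.618 CPM in mutants and 0.367 CPM in controls). The part of tissue content in the levels below was not tested. The 3 yolk protein genes, which mark females, summed to between 5.84 and 12.9 CPM in mutants and between 10.3 and 16.1 CPM in controls, against at least 3488 CPM for male accessory gland markers in every library.

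Of the 9 transcripts, 8 did not differ between E78A mutants and controls beyond the spread between libraries. The ninth, CG1946, was 2.15-fold lower in the mutants, at 2.71 ± 1.02 CPM in mutants (SD, n = 4) and 5.84 ± 1.43 CPM in controls (SD, n = 5), but missed the threshold of the test with genotype alone. That test was edgeR's quasi-likelihood test with Benjamini-Hochberg adjustment over all 13274 genes. It called 0 of the 9 genes at an adjusted p under 0.05, where 1.63% of all tested genes were called, 0.708% as higher in the mutants and 0.927% as lower. At an unadjusted p under 0.05 it was 1 of the 9, CG1946, against 15.1% of all tested genes. By DESeq2 on the same counts CG1946 was likewise the 1 gene of the 9 called, at a background of 3.44% (1.61% higher and 1.82% lower). The mutant and control libraries overlapped for all 9 genes, and they did not overlap for 6.16% of all tested genes. The median log2 fold change, mutant over control, was 0.03 over the 9 genes and -0.0024 over all genes tested. In RNA of whole flies, fewer cells that express a gene and less of its RNA per cell cannot be told apart.

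**Figure D1:**
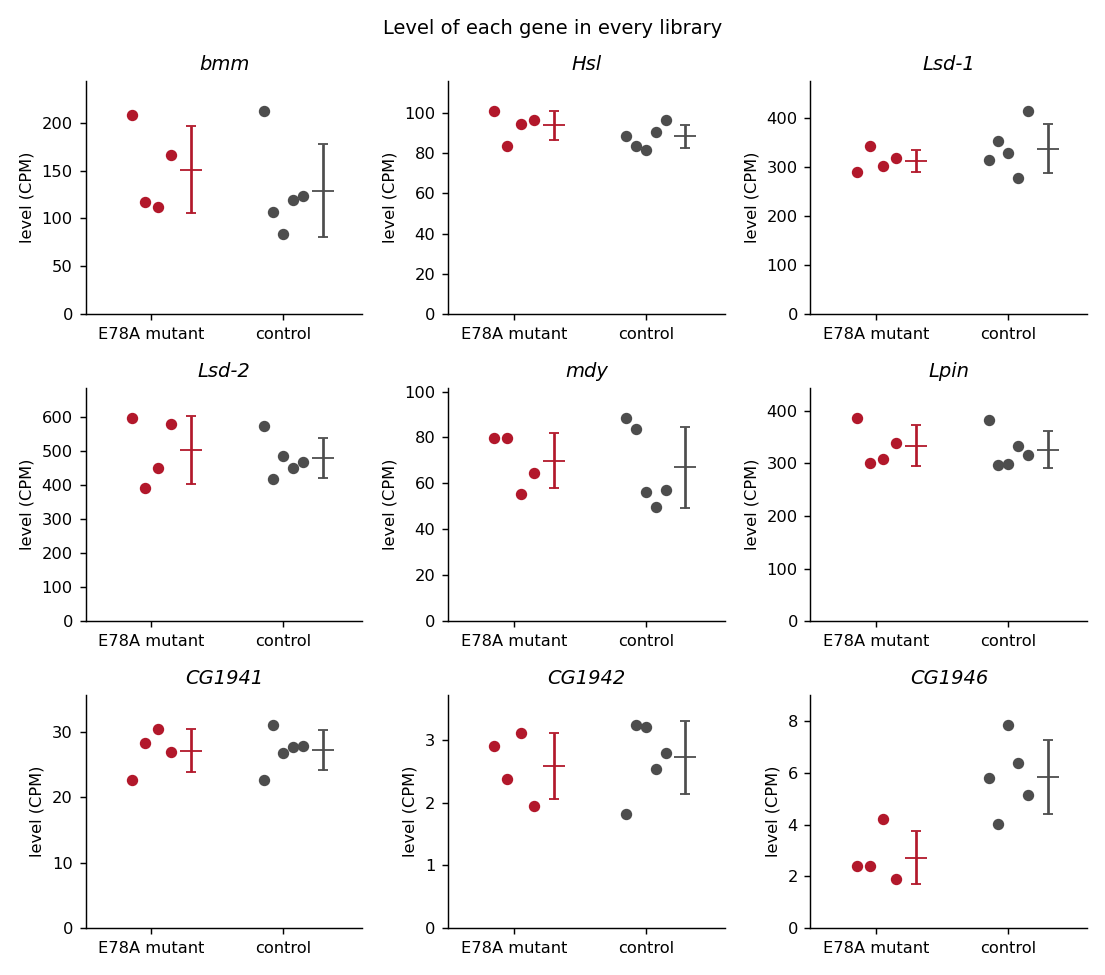
Level of each gene in CPM (linear axis from 0), with 1 point per library, E78A mutants in red on the left and controls in grey on the right, and the mean ± SD beside the points. The points of both genotypes share their range for 8 genes, while for CG1946 mutant replicate 3 (4.20 CPM) is the 1 mutant library that reaches above the lowest control (4.01 CPM).

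Compared per length, as CPM per kilobase of exon, the perilipin genes were the most abundant of the 9 and the diacylglycerol acyltransferase genes CG1946 and CG1942 the least. Lsd-1 led with 159 ± 11.7 CPM per kilobase in mutants (SD, n = 4) and 172 ± 25.7 in controls (SD, n = 5), followed by Lsd-2 with 109 ± 21.7 in mutants and 104 ± 12.6 in controls. On that scale Lsd-1 stood at percentile 95.5 of all tested genes and Lsd-2 at percentile 93.2. Lpin (60.5 ± 7.04 in mutants and 59.1 ± 6.38 in controls) and bmm (61.8 ± 18.6 in mutants and 52.9 ± 20.0 in controls) came next and overlapped in both genotypes. So did mdy (25.9 ± 4.45 in mutants and 24.9 ± 6.55 in controls) and Hsl (24.4 ± 1.91 in mutants and 22.9 ± 1.52 in controls). Below them CG1941 had 16.1 ± 1.95 CPM per kilobase in mutants and 16.2 ± 1.79 in controls. CG1942 had the lowest mean of the 9 in both genotypes, 1.98 in mutants and 2.09 in controls, below CG1946 at 2.28 and 4.91. The ranges of these 2 genes overlapped in mutants, at 1.58 to 3.54 CPM per kilobase for CG1946 and 1.49 to 2.38 for CG1942. In controls CG1946 lay above CG1942, at 3.37 to 6.60 against 1.40 to 2.48.

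Of the lipase genes, bmm had the widest relative spread within genotypes of the 9 genes and no difference between genotypes beyond it. Brummer, its product, is the fly homologue of adipose triglyceride lipase and cuts the first fatty acid from stored triacylglyceride. The gene (FBgn0036449) lies on chromosome 3L at 14776496 to 14786412 on the minus strand. In mutant replicates 1 to 4 it was at 208, 117, 112 and 166 CPM, and in control replicates 1 to 5 at 212, 107, 83.5, 119 and 124 CPM. The highest library of each genotype was its replicate 1, and the groups overlapped over most of their range. The log2 fold change was 0.23 (SE 0.25, edgeR adjusted p = 0.711). Its 95% interval, -0.32 to 0.77, reaches from 1.25-fold lower to 1.70-fold higher in the mutants. The libraries numbered 1 moved it most: it was 0.03 without mutant replicate 1 and 0.48 without control replicate 1 (unadjusted p = 0.03, edgeR adjusted p = 0.305). The spread within genotypes was 34.7% of the mean, where counting error alone gives 2.02%.

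Hsl, the homologue of hormone-sensitive lipase, which acts on the droplet surface with the perilipin Lsd-1, was the steadiest of the 9. The gene (FBgn0034491) lies on 2R at 20257650 to 20261726 on the plus strand. It was at 101, 83.4, 94.7 and 96.4 CPM in mutant replicates 1 to 4 and at 88.8, 83.8, 81.8, 90.5 and 96.6 CPM in control replicates 1 to 5. All 9 libraries lay within 1.23-fold of each other. Mutants differed from controls by a log2 fold change of 0.09 (SE 0.08, edgeR adjusted p = 0.626), and its 95% interval, from -0.08 to 0.25, reaches from 1.06-fold lower to 1.19-fold higher in the mutants. The level of bmm per length was 2.52 ± 0.610 times that of Hsl in mutants (SD, n = 4) and 2.30 ± 0.841 times in controls (SD, n = 5).

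Neither perilipin gene differed between genotypes beyond the spread between libraries. Lsd-1, which in the fly is needed for hormone-driven lipolysis, lies on 3R at 23763857 to 23766662 on the plus strand (FBgn0039114). It was at 289, 342, 302 and 318 CPM in mutant replicates 1 to 4 and at 314, 352, 328, 278 and 413 CPM in control replicates 1 to 5. The lowest and the highest of these are both controls. This gave a log2 fold change of -0.11 (SE 0.11, 95% interval from -0.34 to 0.12, edgeR adjusted p = 0.668), and -0.02 without control replicate 5, the highest library. Its exons share 144 bases with CG10214 on the other strand, whose 2022 counts are few beside the 51832 of Lsd-1.

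Lsd-2, which shields droplets from lipases and favours storage, lies on X at 15069127 to 15076220 on the minus strand (FBgn0030608). It was at 595, 390, 450 and 578 CPM in mutant replicates 1 to 4 and at 572, 418, 486, 449 and 468 CPM in control replicates 1 to 5. The mutants held both the highest and the lowest library. Between genotypes the log2 fold change was 0.07 (SE 0.13, 95% interval from -0.21 to 0.36, edgeR adjusted p = 0.839). Per length, Lsd-2 was at 0.694 ± 0.170 of the level of Lsd-1 in mutants and 0.617 ± 0.124 in controls, so the balance between the perilipins differed by less than the spread between libraries.

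**Figure D2:**
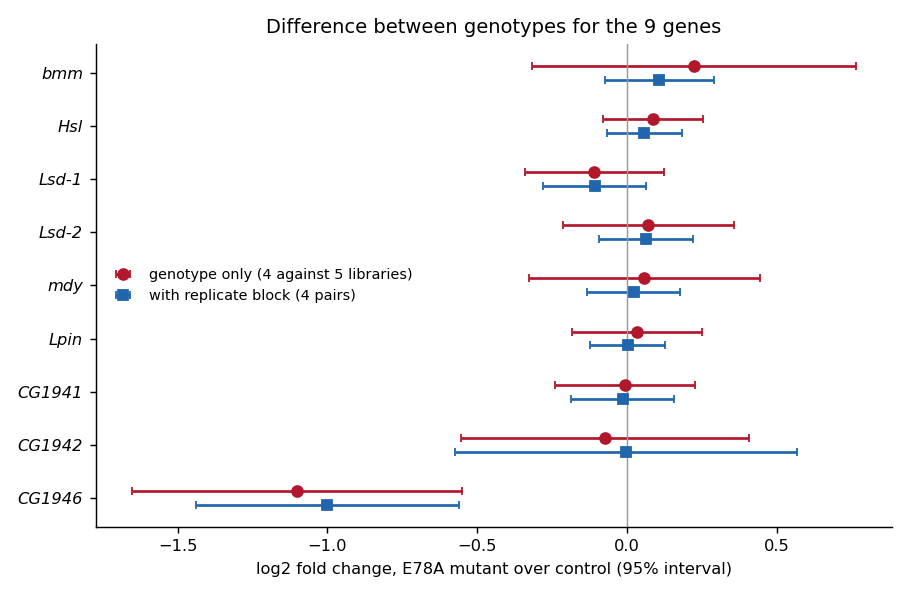
Log2 fold change of each gene, E78A mutant over control, with its 95% interval, from the fit with genotype alone (red circles, 4 against 5 libraries) and from the fit with the replicate number as a block (blue squares, 4 pairs). Intervals of 8 genes include 0 in both fits, and that of CG1946 lies below 0 in both.

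The genes of the last steps of synthesis with high levels, mdy and Lpin, did not differ beyond the spread between libraries. Midway, the product of mdy, is the fly diacylglycerol acyltransferase of the DGAT1 type. The gene (FBgn0004797) lies on 2L at 16816660 to 16826964 on the plus strand, and was at 79.6, 79.7, 55.3 and 64.6 CPM in mutant replicates 1 to 4 and at 88.4, 83.6, 56.2, 49.9 and 57.0 CPM in control replicates 1 to 5. In both genotypes replicates 1 and 2 stood above all others. Over all libraries mdy had a log2 fold change of 0.06 (SE 0.18, 95% interval from -0.33 to 0.44, edgeR adjusted p = 0.909).

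Lpin encodes lipin, the phosphatidate phosphatase that supplies diacylglycerol and is also known for a role in fat body development. It lies on 2R at 8136986 to 8156654 on the minus strand (FBgn0263593). The gene was at 386, 301, 308 and 340 CPM in mutant replicates 1 to 4 and at 383, 297, 299, 334 and 316 CPM in control replicates 1 to 5, again with replicate 1 highest in each genotype. The log2 fold change was 0.03 (SE 0.10, 95% interval from -0.18 to 0.25, edgeR adjusted p = 0.905). It shares 600 of its 5511 exonic bases with kermit on the same strand, which had 20651 counts against 52434 for Lpin, so reads over that stretch could belong to either gene.

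The remaining 3 genes, CG1941, CG1942 and CG1946, are predicted acyltransferases of the DGAT2 type and lie side by side on the plus strand of 2R. CG1941 (FBgn0033214) spans 7709873 to 7711981, CG1942 (FBgn0033215) 7712578 to 7714182 and CG1946 (FBgn0033216) 7714923 to 7716781. Gaps of 596 and 740 bases separate them. The sources used here do not say how reads matching more than 1 of such related genes were counted, and their separate levels are uncertain to that extent.

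CG1941 and CG1942 did not differ between genotypes beyond the spread between libraries. CG1941 was at 22.6, 28.3, 30.4 and 27.0 CPM in mutant replicates 1 to 4 and at 22.7, 31.0, 26.7, 27.7 and 27.9 CPM in control replicates 1 to 5. The lowest library of each genotype was its replicate 1, and the log2 fold change was -0.0067 (SE 0.11, 95% interval from -0.24 to 0.23, edgeR adjusted p = 0.984). CG1942, at 2.90, 2.38, 3.11 and 1.94 CPM in mutant replicates 1 to 4 and 1.82, 3.24, 3.21, 2.54 and 2.80 CPM in control replicates 1 to 5, had only 32 to 59 counts a library. Its log2 fold change was -0.07 (SE 0.22, 95% interval from -0.55 to 0.41, edgeR adjusted p = 0.910). The interval reaches from 1.47-fold lower to 1.33-fold higher in the mutants.

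CG1946 was at 2.39, 2.38, 4.20 and 1.88 CPM in mutant replicates 1 to 4, against 5.81, 4.01, 7.85, 6.40 and 5.14 CPM in control replicates 1 to 5. These values rest on 31 to 73 counts a library in mutants and 73 to 137 in controls. Mutant replicate 3 overlapped control replicate 2, and the other 3 mutant libraries lay below every control. The log2 fold change was -1.10 (SE 0.25, 95% interval from -1.65 to -0.55, unadjusted p = 0.000932, edgeR adjusted p = 0.0528), and the interval reaches from 1.46-fold to 3.14-fold lower in the mutants.

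The call on CG1946 turned on the fit. Blocked on the replicate number that the sample sheet gives, over the 4 pairs, the log2 fold change of CG1946 was -0.9999 (SE 0.20, edgeR adjusted p = 0.0238), the 1 gene of the 9 called, where that fit called 3.79% of all tested genes, 1.98% as lower and 1.81% as higher. In each of the 4 pairs the mutant library was the lower, with log2 ratios of -1.28, -0.75, -0.61 and -1.45 in pairs 1 to 4. DESeq2 on the 9 libraries also called it lower (-1.10, adjusted p = 0.0015), as did the authors' deposited table with a log2 value of -0.94 and an adjusted p of 0.000736. The edgeR call also passed without mutant replicate 3 (-1.39, adjusted p = 0.0156) and without control replicate 2 (-1.21, adjusted p = 0.0304), the libraries that overlap, and did not pass without any of the other 7. Grouped by the genotype tag in place of the title, which moves 4 libraries to the other genotype, the log2 fold change of CG1946 was -0.22 (SE 0.40, edgeR adjusted p = 0.9995), and that grouping called 0 of all tested genes, with 171 at an unadjusted p under 0.05.

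The makeup of the DGAT2 type transcripts can be read within each library, free of the scaling between libraries. Per length, CG1941 made up 79.2% ± 4.17 of the 3 genes together in mutants (SD, n = 4) and 69.8% ± 4.54 in controls (SD, n = 5). CG1946 made up 11.02% ± 2.78 in mutants and 21.3% ± 5.04 in controls, and CG1942 9.78% ± 2.05 in mutants and 8.93% ± 1.29 in controls. These shares are parts of a whole, so a lower share of CG1946 raises the others. The level of CG1941 itself had a log2 fold change of -0.0067. The ratio of CG1946 to CG1941 was 0.149, 0.119, 0.196 and 0.0988 in mutant replicates 1 to 4 and 0.362, 0.183, 0.416, 0.327 and 0.261 in control replicates 1 to 5. As with the level itself, mutant replicate 3 overlapped control replicate 2.

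Of the 10 tested neighbours of the 3 genes, 5 on each side, 0 were called by either edgeR fit or by DESeq2. Of all tested genes, edgeR called 1.63% without and 3.79% with the replicate block, and DESeq2 called 3.44%. At an unadjusted p under 0.05 in edgeR it was 1 neighbour, tor, against 15.1% of all tested genes. With only 10 genes, these counts are near those shares. The log2 fold changes of 8 neighbours lay between -0.07 and 0.16. The next gene downstream, CG18812, lies on the other strand, and its nearer edge, where its transcript ends, is 25 bases past CG1946. It had -0.04 (SE 0.08, edgeR adjusted p = 0.856). The 2 exceptions were tor, the gene next to CG1941, with 0.63 (SE 0.27, edgeR adjusted p = 0.289), and the non-coding CR45108 with -0.34 (SE 0.42, edgeR adjusted p = 0.752). They are named after their values were seen.

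**Figure D3:**
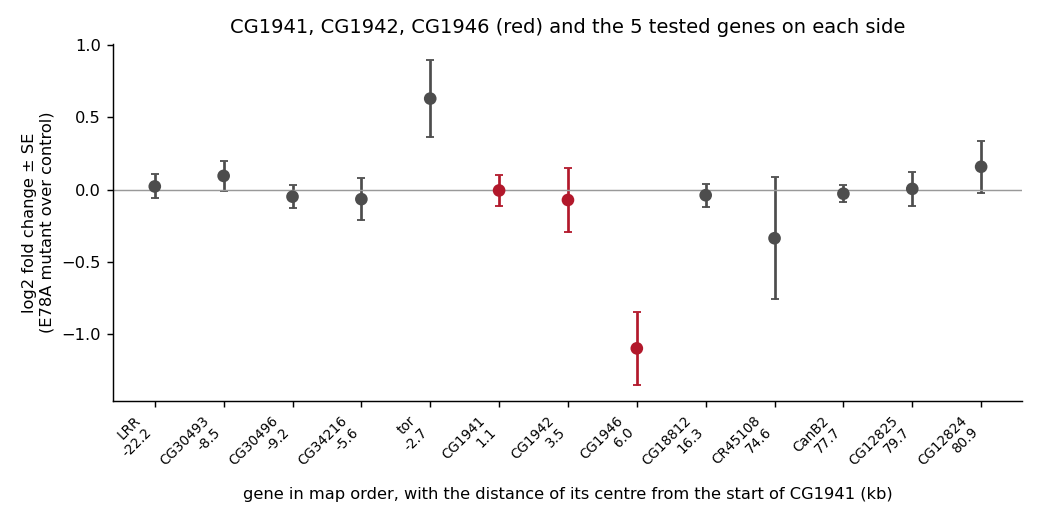
Log2 fold change ± SE, E78A mutant over control, of CG1941, CG1942 and CG1946 (red) and of the 5 tested genes on each side (grey) in map order, with the distance of each gene's centre from the start of CG1941 in kb. CG1946 stands at -1.10 between neighbours CG1942 at -0.07 and CG18812 at -0.04.

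For several of the 9 genes the libraries differed by replicate number more than by genotype. The sheet's numbers 1 to 4 join mutant replicates 1 to 4 to control replicates 1, 2, 4 and 5, and control replicate 3, numbered 5, has no partner. The mean of bmm over both genotypes was 210 CPM in pair 1, 112 in pair 2, 115.4 in pair 3 and 145 in pair 4, while within pairs the log2 ratio, mutant over control, was -0.03, 0.14, -0.10 and 0.43. For mdy, pairs 1 and 2 averaged 84.0 and 81.6 CPM and pairs 3 and 4 52.6 and 60.8 CPM. Its log2 ratios within pairs 1 to 4 were -0.15, -0.07, 0.15 and 0.18. Lpin was at 386 CPM in the mutant and 383 CPM in the control of pair 1, and at 301 and 297 CPM in pair 2. It was at 308 and 334 CPM in pair 3 and at 340 and 316 CPM in pair 4. The Lpin averages of pairs 3 and 4, 321 and 328 CPM, lay closer together than the genotypes did within either pair. Lsd-2 averaged 584, 404, 450 and 523 CPM in pairs 1 to 4, with log2 ratios of 0.06, -0.10, 0.0026 and 0.30. What a number stands for (a day, a vial, a preparation) is not given in the labels, and its part in these differences was not tested.

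Over the 8 paired libraries, adding the number as a block cut the standard error of bmm to 0.0814, against 0.244 without it, a ratio of 0.334. The ratio was 0.374 for mdy, 0.486 for Lsd-2 and 0.548 for Lpin. It was 0.667 for Lsd-1, 0.673 for CG1941, 0.757 for Hsl and 0.778 for CG1946, and 1.10 for CG1942, the gene with the fewest counts. The median was 0.667 over the 9 genes, 0.777 over the 47 other genes of the pathway lists, and 0.906 over the 13176 genes in both fits. With the narrower errors bmm still did not pass the test between genotypes (0.11, 95% interval from -0.07 to 0.29, edgeR adjusted p = 0.548), nor did mdy (0.02, from -0.13 to 0.18, adjusted p = 0.910) or Lpin (0.0028, from -0.12 to 0.13, adjusted p = 0.988).

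**Figure D4:**
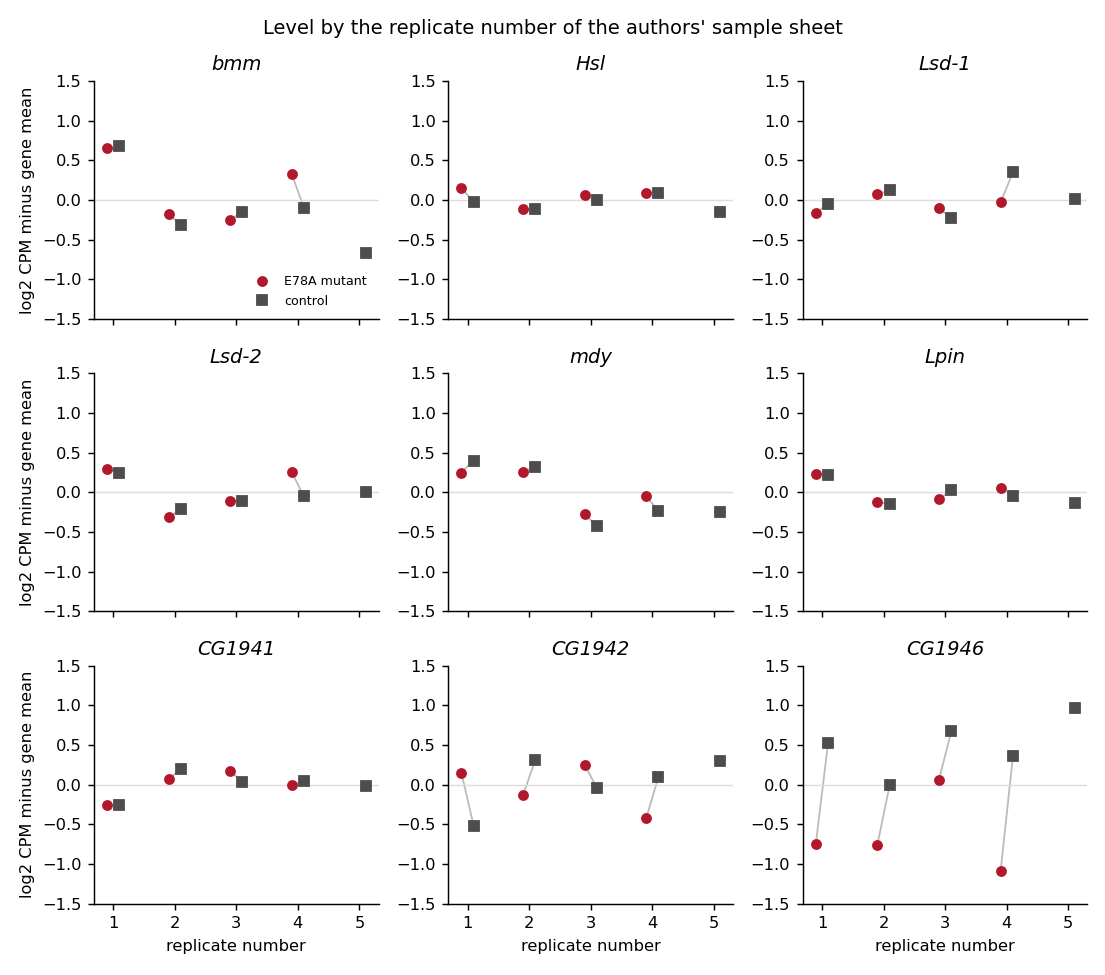
Log2 CPM of each library minus the gene's mean over the 9 libraries, against the replicate number of the authors' sample sheet, with E78A mutants as red circles and controls as grey squares, joined by a line where a number has both. For bmm the mutant and control of numbers 1 to 3 differ by at most 0.14, but those of number 4 by 0.43, and for mdy and Lpin the largest differences are 0.18 and -0.11, while for CG1946 the mutant lies below the control in all 4 pairs.

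The patterns across the 9 libraries most like those of 3 of the genes were found by the root-mean-square difference of log2 CPM, each gene centred on its own mean. Closest to bmm were aay, which encodes a phosphoserine phosphatase (0.165), the maltase gene Mal-B2 (0.177) and the non-coding CR45018 (0.181), where bmm itself deviates from its mean by 0.428. None of these 3 was called (edgeR adjusted p = 0.775, 0.584 and 0.840). That follows from their choice by likeness to bmm, which was not called either, over the same 9 libraries. Closest to mdy, with a deviation of 0.291, were CG17896 (0.0927), CG6503 (0.0979) and CG6543 (0.0990). Closest to CG1946, with a deviation of 0.656, were the non-coding CR44971 (0.211) and CR44214 (0.271) and the protein-coding CG17751 (0.284). Their log2 fold changes, -1.22, -1.40 and -1.03, are given as a description: the likeness was measured over the same 9 libraries, so a lower level in the mutants was fixed by the choice of these genes.

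In the rest of the pathway, 0 of 47 other tested genes in 5 lists were called in either direction, by edgeR with or without the replicate block. Those fits called 3.79% and 1.63% of all tested genes, so a count of 0 among 47 is near the background. DESeq2 called 1, where it called 3.44% of all genes. In edgeR 8 of the 47 had an unadjusted p under 0.05, against 15.1% of all tested genes. The log2 fold change was positive for 31 of the 47 and for 6569 of all 13274 tested genes. Its median was 0.06 over the 47 genes, with a range from -0.55 to 0.50, and -0.0024 over all tested genes. Among 12 other genes of triacylglyceride synthesis, the fatty acid transporter gene Fatp was at 475 ± 97.0 CPM in mutants (SD, n = 4) and 335 ± 51.3 CPM in controls (SD, n = 5), a log2 fold change of 0.50 (SE 0.14, edgeR adjusted p = 0.12). It passed with DESeq2 (adjusted p = 0.0197), without mutant replicate 1 (edgeR adjusted p = 0.0379) and without control replicate 2 (edgeR adjusted p = 0.0486). Over 16 alternatives grouped by title its log2 fold change ran from 0.22, with the 5 libraries whose labels agree, to 0.62, and grouped by genotype tag it was -0.25. The lipid phosphatase gene wun2 had 0.42 (SE 0.13, edgeR adjusted p = 0.161). The median of these 12 was 0.11.

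Among 7 other genes of droplet coat and assembly the median was 0.02, and the smallest p values belonged to CdsA, which draws phosphatidate into phospholipid synthesis (-0.15, edgeR adjusted p = 0.387), and Pcyt1, an enzyme of phosphatidylcholine synthesis (0.12, edgeR adjusted p = 0.642). Among 6 other genes of lipolysis the median was 0.12. The gut lipase gene mag was at 103 ± 47.5 CPM in mutants (SD, n = 4) and 151 ± 32.2 CPM in controls (SD, n = 5), a log2 fold change of -0.55 (SE 0.25, edgeR adjusted p = 0.325), and passed in 1 of 16 alternatives grouped by title, without mutant replicate 2 (-0.90, edgeR adjusted p = 0.0401). In the others it was as small as -0.24, with the 5 libraries whose labels agree (edgeR adjusted p = 0.91), and grouped by genotype tag it was 0.12. CG1882, an abhydrolase-family gene, had 0.16 (SE 0.07, edgeR adjusted p = 0.320).

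Among 12 genes of adipokinetic hormone and the control of fat mobilisation, which carry the fasting signal to the droplet, the median was 0.05. The receptor gene AkhR was at 65.5 ± 13.1 CPM in mutants (SD, n = 4) and 80.2 ± 11.8 CPM in controls (SD, n = 5), a log2 fold change of -0.29 (SE 0.14, edgeR adjusted p = 0.375). Stim, a calcium sensor of the store-operated calcium entry that limits fat gain in flies, had 0.15 (SE 0.06, edgeR adjusted p = 0.262). Among 10 genes of fatty acid synthesis the median was 0.04, and SREBP, a transcription factor of lipid synthesis, and its escort SCAP had 0.24 and 0.20 (edgeR adjusted p = 0.268 and 0.370).

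**Figure D5:**
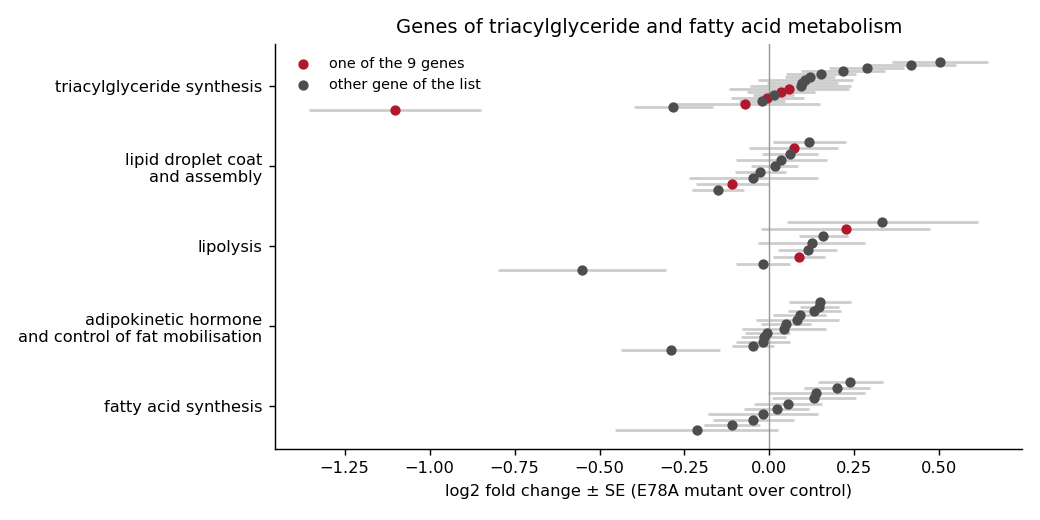
Log2 fold change ± SE, E78A mutant over control, of every tested gene of 5 lists, with the 9 genes described here in red and the other 47 in grey, ordered by value within a list. CG1946 at -1.10 is the lowest of all, mag at -0.55 the next, and Fatp at 0.50 the highest.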

How the data were processed

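The labels describe stranded poly(A) libraries from whole flies. The authors deposited a raw count table (counts per gene and library), their own comparison with log2 fold changes and p-values, a sample sheet with a replicate number and a size factor (a ratio, not used) for each library, and an annotation sheet. Neither the normalised nor the regularised-log table entered the work. Tools named in the submitters' processing notes are STAR 2.6.1b, featureCounts 1.6.3, cutadapt 1.16 and DESeq2 (1.20.0, 1.22.2), with BDGP6 and dm6 as builds. Whether counting used strand, and how it handled reads matching several genes, is not stated there.

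Libraries were grouped by title, 4 E78A mutant and 5 control, and numbered in accession order. The fit used edgeR 4.0.16 under R 4.3.3 (TMM, filterByExpr with a minimum count of 10, quasi-likelihood test on genotype), and adjusted by Benjamini-Hochberg over 13274 genes, at a threshold of 0.05. CPM values use TMM-scaled library sizes, and every level rests on the totals of 16556267 to 19093675 counts. Intervals of fold changes use the fit's SE and total degrees of freedom. Exon lengths are unions over Ensembl release 115, whose coordinates of the 9 genes equal those of the annotation sheet. Patterns were compared on log2 CPM with a prior count of 2.

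Deviations from group means correlated at 0.207, 0.214, 0.210 and 0.277 between mutant and control libraries of the same sheet number. Between those of different numbers the correlations ran from -0.2355 to 0.0402. The numbers were therefore taken to pair 4 mutant and 4 control libraries. Alternatives were the number as a block over those 8 libraries, DESeq2 1.42.0, upper-quartile or RLE factors, all genes unfiltered, at least 1 CPM in 4 or more libraries, leaving out each library, grouping by genotype tag, and the 5 libraries whose labels agree.

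The 9 genes and the 5 lists (56 entries, 50 found by the sheet's symbol and 6 by their current one) were chosen with earlier results of these data known, and 4 list entries were respelled to the sheet's symbols. Named were the 9 genes, Eip78C, called neighbours of the DGAT2 type genes, called genes and the 2 smallest p of each list, and the 3 most alike genes of bmm, mdy and CG1946.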

Additional observations from a re-analysis of the deposited data

How the results depend on the processing

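Wherever libraries were grouped by title, bmm, Hsl and Lsd-1 kept the sign of their log2 fold change and were not called. With a library left out, bmm ran from 0.031 to 0.48, Hsl from 0.053 to 0.14 and Lsd-1 from -0.17 to -0.025. CG1946 had -1.10 and was called lower with DESeq2 (-1.10), with the replicate block (-0.9999) and without control replicate 2 or mutant replicate 3. Over the 16 alternatives grouped by title its adjusted p ran from 0.0015 to 0.355, the last with the 5 libraries whose labels agree. With each library left out in turn, the log2 fold change ran from -1.39 to -0.97 for CG1946, from -0.018 to 0.18 for Lsd-2, from -0.031 to 0.18 for mdy, from -0.043 to 0.10 for Lpin, from -0.067 to 0.071 for CG1941 and from -0.19 to 0.039 for CG1942. Grouped by genotype tag, CG1946 had -0.22 (edgeR adjusted p = 0.9995), Lsd-1 0.034, Lsd-2 -0.075 and mdy -0.066. The cause of these moves was not tested. The intervals of the genes that changed sign include 0.

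Of all genes tested, 94 were higher in the mutants and 123 lower. DESeq2 called 235 higher and 265 lower, the fit with the replicate block 239 and 261, the 5 libraries whose labels agree 13 and 8, and the grouping by tag 0 and 0, with 171 at an unadjusted p under 0.05 in edgeR. The cause was not tested, and the 5-library fit also had fewer samples. With each library left out the counts ran from 53 to 139 higher and from 74 to 152 lower. They moved by over 1.5 times without mutant replicate 2 (62 higher), mutant replicate 3 (56 higher, 81 lower), mutant replicate 4 (53 higher, 74 lower) and control replicate 4 (61 higher). Of the other pathway genes 0 were called, against 1 with DESeq2 and 0 or 1 with a library left out. The levels of CG1942 and CG1946 rest on low counts. Counting error alone gives 14.6% and 11.2% of their means, where the spread within genotypes was 20.9% and 30.8%.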
